A study of Mus musculus with 40 samples.

Results

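*Adm2*, *Gdf15* and *Stc2* are 3 of the 55536 genes counted in mouse embryonic stem cells (mESCs), and they are described here together because each encodes a secreted stress factor whose mRNA was lower after inhibition of the checkpoint kinase ATR. They were picked by name from earlier results of these same libraries, on the contrast of ATR inhibitor against vehicle, so their values in that contrast are a description and carry no test. All 3 passed the filter on low counts in both sequencing multiplexes, where 18577 and 18721 genes did. *Adm2* passed it through its vehicle libraries, since its counts under the inhibitor were 7 to 20.

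RNA-seq of poly(A) RNA compared WT mESCs, *Ccnc* KO mESCs and *Cdk8* KO mESCs after 4 h with DMSO or with 900 nM AZD6738, an ATR inhibitor (ATRi). Cyclin C and CDK8, the products of the targeted genes, belong to the kinase module of the Mediator complex, and the libraries address whether their loss alters the transcriptome with or without ATRi. WT cells are represented by 2 biological replicates, clones D1, G2 and H5 carry the *Ccnc* knockout, and clones B9, C8 and H4 that of *Cdk8*. The 20 libraries were sequenced as 2 multiplexes of 10, one with the *Ccnc* KO clones and one with the *Cdk8* KO clones, and the WT samples were run in both, so the comparisons of the 2 multiplexes share their controls.

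The 6 groups were therefore WT with DMSO, WT with ATRi, *Ccnc* KO with DMSO, *Ccnc* KO with ATRi, *Cdk8* KO with DMSO and *Cdk8* KO with ATRi. All cells were grown on gelatin in serum with LIF. Each knockout clone is a line made by CRISPR, its DMSO and ATRi libraries come from the same line, and a clone can differ from WT in more than the targeted gene. The fits leave out WT replicate 2 under ATRi, which the study had set aside as standing apart from its group. Values of that library are printed beside the others.

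Counted reads per library ranged from 30899823 to 67274049, with a median of 41972557. The gene *Ccnc* lay at 4.24 to 7.40 CPM (counts scaled to library size with TMM factors) in the *Ccnc* KO libraries and at 39.6 to 45.1 in the WT libraries of that multiplex. *Cdk8* lay at 57.3 to 64.6 CPM in *Cdk8* KO and 71.2 to 78.6 in WT with DMSO, and at 52.3 to 56.3 and 57.7 to 71.5 with ATRi, so its count was lower in the knockout within each treatment and far from absent. The sum of the 10 mESC markers examined, *Pou5f1* and *Nanog* among them, was 4931 to 5371 CPM in WT. It was 4451 to 5027 in *Ccnc* KO and 3714 to 4773 in *Cdk8* KO. The 8 fibroblast markers summed to between 5.78 and 25.7 CPM. Lists of trophoblast and mesoderm markers reached at most 76.3 and 6.56 CPM. Neuroectoderm markers reached 72.6 CPM in WT, 67.3 in *Ccnc* KO and 134 in *Cdk8* KO. A list of 12 primitive endoderm markers summed to 212 to 243 CPM in WT, 325 to 495 in *Ccnc* KO and 596 to 853 in *Cdk8* KO, and the part of this shift in the values below was not tested.

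Adrenomedullin 2 (*Adm2*, also called intermedin) is a small peptide hormone of the calcitonin family, GDF15 is a distant member of the TGF-β superfamily that reports cell stress to the brainstem, and stanniocalcin 2 (*Stc2*) is a secreted glycoprotein that restrains the proteases which free insulin-like growth factors from their binding proteins. All 3 genes are known targets of the integrated stress response (ISR). In that pathway stress kinases phosphorylate the initiation factor eIF2α, general translation falls, and translation of the transcription factor ATF4 rises, which switches on genes for amino acid supply, redox defence and secreted signals.

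The annotation of GRCm38 places the members on different chromosomes. *Adm2* (ENSMUSG00000054136) lies at chr15:89322720-89324731 on the plus strand, with 1 transcript and 1298 exonic bases. *Gdf15* (ENSMUSG00000038508) lies at chr8:70629393-70632456 on the minus strand, with 2 coding transcripts that begin in different first exons and 1852 exonic bases. *Stc2* (ENSMUSG00000020303) lies at chr11:31357307-31370074 on the minus strand, with 5 transcripts, of which 1 is coding, and 5175 exonic bases. No exon of the 3 genes overlaps an exon of another gene on either strand.

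The proximal promoters of the members are shown as RefSeq gives them for GRCm38.p6. Each runs 5′ to 3′ on the gene's own strand and ends at the base before the first annotated exon. Capitals mark a match to a searched motif. The regions are chr15:89322470-89322719 for *Adm2*, chr8:70632457-70632706 for *Gdf15* and chr11:31370075-31370311 for *Stc2*.
Adm2 promoter: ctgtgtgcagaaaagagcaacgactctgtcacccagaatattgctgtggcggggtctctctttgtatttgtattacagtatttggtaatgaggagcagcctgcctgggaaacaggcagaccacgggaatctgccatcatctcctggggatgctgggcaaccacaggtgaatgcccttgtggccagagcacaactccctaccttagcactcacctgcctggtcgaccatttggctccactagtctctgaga
Gdf15 promoter: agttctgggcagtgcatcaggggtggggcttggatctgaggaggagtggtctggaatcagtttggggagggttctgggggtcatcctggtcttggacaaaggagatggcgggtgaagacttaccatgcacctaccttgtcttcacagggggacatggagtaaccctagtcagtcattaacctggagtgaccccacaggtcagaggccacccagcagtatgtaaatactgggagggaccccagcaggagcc
Stc2 promoter: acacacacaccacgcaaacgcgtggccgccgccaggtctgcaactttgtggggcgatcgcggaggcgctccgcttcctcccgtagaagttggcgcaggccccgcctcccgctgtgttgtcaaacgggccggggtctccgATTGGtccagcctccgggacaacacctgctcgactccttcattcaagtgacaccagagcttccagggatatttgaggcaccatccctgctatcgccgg

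The motifs were searched on both strands in windows from 250 bases before to 50 bases after each RefSeq start, and in the 32851 promoter windows of the same length. The composite element bound by ATF4 with C/EBP factors was written as TGATGNAA and occurs in 3.97% of all windows. The cyclic AMP response element TGACGTCA occurs in 1.79%, and the TATA box TATAAA in 13.6%. None of these 3 strings occurs in the *Adm2* window, in either of the *Gdf15* windows or in the *Stc2* window. The CCAAT box, present in 37.4% of windows, occurs in *Stc2*, where it reads ATTGG on the printed strand, and in the window of the inner *Gdf15* start, which is not printed because it runs into an exon of the other transcript. The *Stc2* window holds 28 CpG and is 64.7% GC, against medians of 7 CpG and 52.7% over all windows. The *Adm2* window holds 7 CpG and that of the outer *Gdf15* start 1.

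*Adm2* had the lowest level of the 3 and showed the largest decrease. In the *Ccnc* multiplex its DMSO libraries held 1.16 CPM in WT replicate 1, 0.976 in WT replicate 2, and 1.25, 0.918 and 0.820 in the *Ccnc* KO clones D1, G2 and H5. The ATRi libraries, in the same order, held 0.250, 0.222, 0.253, 0.163 and 0.163 CPM. Every ATRi library was below every DMSO library. In bulk RNA, fewer cells that express a gene and less of its RNA per cell cannot be told apart. In the *Cdk8* multiplex the DMSO libraries held 0.990 CPM in WT replicate 1, 1.06 in WT replicate 2, and 1.32, 0.764 and 0.730 in the *Cdk8* KO clones B9, C8 and H4. The ATRi libraries, in that order, held 0.226, 0.250, 0.166, 0.302 and 0.220 CPM. The treatments again did not overlap, although the lowest DMSO value, in clone H4, rested on 28 reads and the highest ATRi value, in clone C8, on 20.

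Expressed within each line, *Adm2* under ATRi was at 21.5% and 22.8% of its DMSO level in the WT replicates of the *Ccnc* multiplex, and at 20.3%, 17.7% and 19.9% in clones D1, G2 and H5. The WT replicates in the *Cdk8* multiplex gave 22.8% and 23.5%, and clones B9, C8 and H4 gave 12.6%, 39.6% and 30.2%. The WT and *Ccnc* KO lines lay within a narrow band, and the *Cdk8* KO clones held both the smallest and the largest remaining share. With 24 reads with DMSO and 20 with ATRi, the 95% counting interval of clone C8 ran from 20.7% to 74.7%, and that of clone B9 from 5.21% to 26.3%. These intervals overlap, and cover counting error only.

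*Gdf15* showed the smallest decrease. With DMSO the *Ccnc* multiplex gave 3.66 CPM in WT replicate 1, 4.67 in WT replicate 2, 4.92 in clone D1, 2.89 in clone G2 and 3.34 in clone H5. With ATRi these lines gave 2.00, 3.47, 2.19, 1.79 and 2.42 CPM. WT replicate 2 under ATRi lay above 2 of the DMSO libraries, and without it the treatments did not overlap. With DMSO the *Cdk8* multiplex gave 3.59 CPM in WT replicate 1, 3.83 in WT replicate 2, 3.44 in clone B9, 2.96 in clone C8 and 2.97 in clone H4. With ATRi these lines gave 1.98, 2.97, 1.72, 1.56 and 1.79 CPM. Here too the only ATRi library to reach the DMSO range was WT replicate 2.

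Within lines, *Gdf15* under ATRi was at 54.7% of DMSO in WT replicate 1 of the *Ccnc* multiplex and 74.3% in WT replicate 2, with 44.5%, 61.9% and 72.5% in clones D1, G2 and H5. The WT replicates of the *Cdk8* multiplex gave 55.3% and 77.5%, and clones B9, C8 and H4 gave 50.1%, 52.6% and 60.1%. The interval of WT replicate 2 in the *Cdk8* multiplex, 58.8% to 102%, was the only one of the 10 that reached the DMSO level. Clones D1 and H5, which carry the same targeted gene, had intervals of 33.6% to 58.6% and 56.2% to 93.2%.

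*Stc2* had the most reads and the most uniform decrease. Its DMSO libraries in the *Ccnc* multiplex held 9.24 CPM in WT replicate 1, 8.40 in WT replicate 2, 11.7 in clone D1, 9.16 in clone G2 and 8.28 in clone H5. The corresponding ATRi libraries held 4.17, 4.42, 5.59, 4.44 and 4.15 CPM. The groups did not overlap, and clone D1 was the highest with both treatments. In the *Cdk8* multiplex the DMSO values were 8.77 CPM in WT replicate 1, 8.57 in WT replicate 2, 10.3 in clone B9, 11.2 in clone C8 and 9.47 in clone H4. The ATRi values were 4.35, 4.66, 4.38, 5.65 and 5.49 CPM. All 3 *Cdk8* KO clones were above both WT replicates with DMSO, whereas with ATRi clone B9 fell among them.

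The share of *Stc2* left under ATRi ran from 42.3% in clone B9 to 58.0% in clone H4, with 45.2% and 52.6% in the WT replicates of the *Ccnc* multiplex and 49.6% and 54.3% in those of the *Cdk8* multiplex. Clones D1, G2 and H5 gave 47.8%, 48.4% and 50.1%. None of the 10 counting intervals came above 68.3%.

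**Figure D1:**
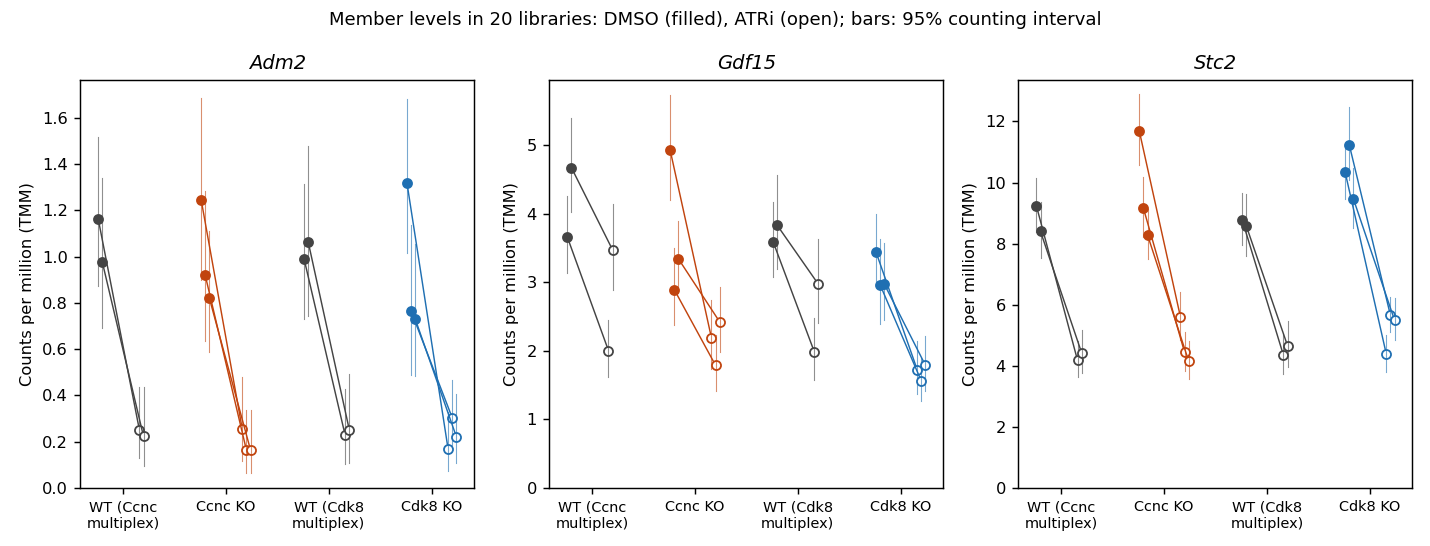
Level of each member in the 20 libraries, in TMM-normalized CPM on linear axes that start at 0. Lines join the DMSO (filled) and ATRi (open) libraries of the same WT replicate (grey), *Ccnc* KO clone (orange) or *Cdk8* KO clone (blue), and bars are 95% Poisson counting intervals. Every line falls from DMSO to ATRi, and only *Gdf15* in WT replicate 2 keeps an ATRi level inside the DMSO range.

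The 6 knockout clones and 2 WT replicates are counted here as 8 lines, although the WT replicates may be separate cultures of the same line. Each was counted once, with the WT replicates averaged over the multiplexes. The mean log2 ratio of ATRi to DMSO was then -1.96 ± 0.44 for *Adm2*, -1.01 ± 0.13 for *Stc2* and -0.77 ± 0.26 for *Gdf15* (SD, n = 8). Without WT replicate 2 these means were -1.96 ± 0.47, -1.02 ± 0.13 and -0.82 ± 0.23 (SD, n = 7). All 8 lines were lower under ATRi for each gene. The decrease of *Adm2* exceeded that of *Stc2* by 0.95 ± 0.35 and that of *Gdf15* by 1.19 ± 0.48 on the log2 scale, with the same order in 8 of 8 lines. *Stc2* decreased more than *Gdf15* in 7 of 8 lines, by 0.24 ± 0.22, a mean difference close to its SD, and clone D1 had the opposite order.

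**Figure D2:**
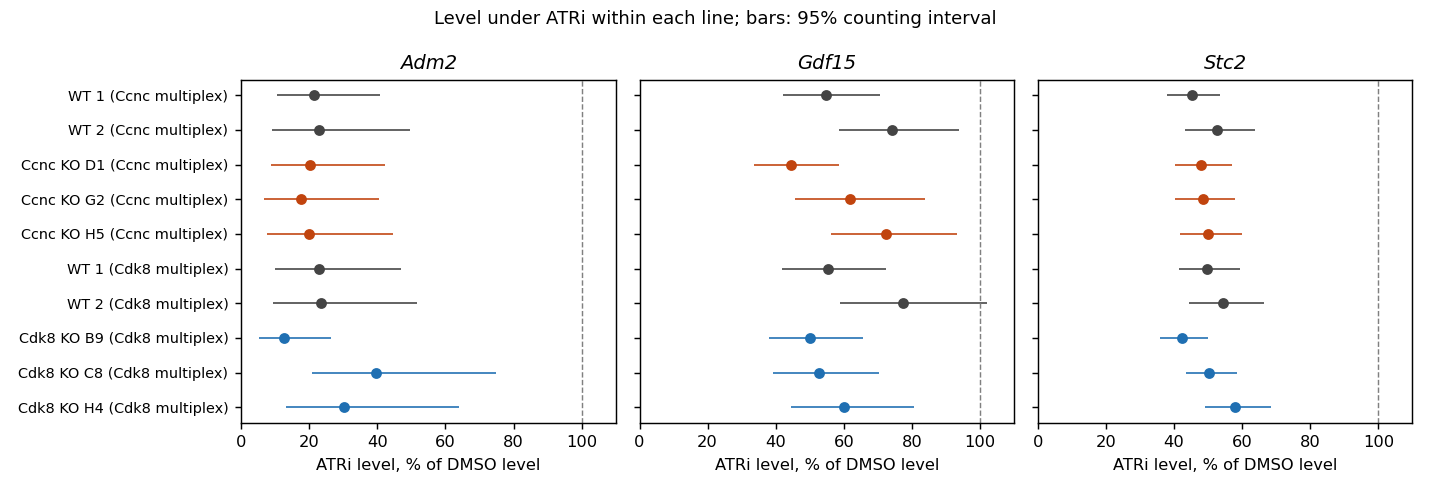
Level under ATRi as a percent of the DMSO level of the same line, for the 10 line and multiplex pairs, with 95% counting intervals. The dashed line marks no difference. *Adm2* sits between 12.6% and 39.6%, *Stc2* between 42.3% and 58.0% and *Gdf15* between 44.5% and 77.5%.

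The WT samples run in both multiplexes show how far a member's value moves without any change of line or treatment. Whether each was one library sequenced in both multiplexes or a library made for each is not given in the sources used here, so the ratios may or may not include library making. Across the 4 WT samples the value in the *Cdk8* multiplex divided by that in the *Ccnc* multiplex was 0.852 to 1.13 for *Adm2*, 0.820 to 0.991 for *Gdf15* and 0.949 to 1.05 for *Stc2*. The span was narrowest for *Stc2*, which had the most reads.

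Corrected for exon length, the members were modest transcripts. In WT with DMSO, levels in RPKM, reads scaled to both exon length and library size, averaged 0.824 and 0.791 for *Adm2* in the multiplex of *Ccnc* KO and that of *Cdk8* KO, 2.25 and 2.00 for *Gdf15*, and 1.70 and 1.68 for *Stc2*. On this scale *Gdf15* and *Stc2* were near the 43rd to 47th percentile of the tested genes in those libraries, and *Adm2* near the 34th. *Gdf15* was above *Stc2* in WT, whereas in *Cdk8* KO with DMSO the order was turned, at 1.69 and 2.00 RPKM. Under ATRi the 4 group means of *Adm2* were 0.149 to 0.183 RPKM.

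Loss of Cyclin C or CDK8 did not move any member past the threshold. The genotype effect was tested beside treatment with the edgeR quasi-likelihood test over all genes, calling an adjusted p under 0.05 together with a fold change above 2 or below 0.5. None of the 3 members was called in *Ccnc* KO, where 1.94% of tested genes were, and none in *Cdk8* KO, where 1.05% were. In a fit with the clone as a random block 1.58% and 0.353% of genes were called, and again no member.

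*Adm2* differed from WT by -0.18 ± 0.25 in *Ccnc* KO (log2 fold change ± SE, adjusted p = 0.700) and by -0.07 ± 0.28 in *Cdk8* KO (adjusted p = 0.917). Its 95% intervals allow folds of 0.613 to 1.28 and 0.620 to 1.46, so a moderate difference in either direction was not detectable at its counts. *Gdf15* differed by -0.07 ± 0.18 (adjusted p = 0.834) and -0.24 ± 0.12 (adjusted p = 0.293), with folds of 0.733 to 1.23 and 0.699 to 1.02.

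*Stc2* was the only member whose interval in the edgeR fit left out a fold of 1, and only in 1 knockout. In *Cdk8* KO its log2 difference from WT was 0.25 ± 0.11, with a 95% interval from just above 1.00 to 1.41 in fold and an unadjusted p of 0.0452 from the edgeR model, and it did not pass after adjustment over all genes (adjusted p = 0.223). This fit counts the DMSO and ATRi libraries of a clone as separate samples. With the clone as a random block the *Cdk8* KO difference was 0.25 ± 0.14 (limma, adjusted p = 0.502). In the DMSO libraries alone it was 0.25 ± 0.14 (edgeR). In *Ccnc* KO the difference in the first fit was 0.15 ± 0.13 (edgeR, adjusted p = 0.481), with folds of 0.921 to 1.34. The intervals of all 6 comparisons in that fit stay within a 2-fold change. The SE of *Adm2* in *Cdk8* KO was 0.28 in it and 0.38 with the clone as a block, so this limit holds for that fit only.

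Whether knockout cells answered ATRi differently from WT cells was tested by the interaction of the 2 factors. No member was called for it in the edgeR fit, and neither was any other gene of either multiplex (0% of tested genes, with 395 and 255 genes at an unadjusted p under 0.05). With the clone as a fixed block, 0 and 4 genes (0.0214%) were called, none of them a member, and DESeq2 called no member. With 1 WT library left under ATRi these tests are weak, and the intervals show it. The difference between the ATRi responses of knockout and WT was -0.29 ± 0.60 for *Adm2* in *Ccnc* KO and 0.16 ± 0.67 in *Cdk8* KO, with folds of 0.335 to 2.01 and 0.391 to 3.19 inside the 95% interval. For *Gdf15* it was 0.24 ± 0.38 and 0.01 ± 0.28, with folds of 0.673 to 2.09 and 0.650 to 1.56. For *Stc2* it was 0.03 ± 0.28 and -0.00 ± 0.25, with folds of 0.674 to 1.54 and 0.673 to 1.48. All 6 adjusted p-values of the interaction were 1.00 in the edgeR fit.

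**Figure D3:**
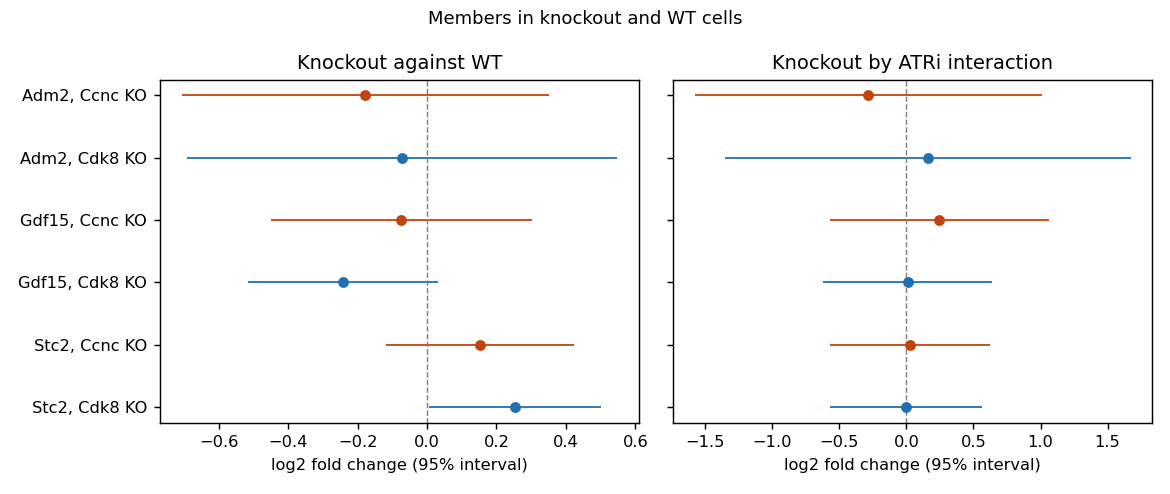
Knockout against WT (left) and the interaction of knockout and ATRi (right) for each member, as log2 fold changes with 95% intervals from the edgeR fits, *Ccnc* KO in orange and *Cdk8* KO in blue. The dashed lines mark no difference. The genotype intervals stay within -0.71 to 0.55, and those of the interaction reach from -1.58 to 1.67.

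The signals these factors would need were examined next, starting with the receptors and partners. *Gfral*, the receptor of GDF15, had 0 counts in each of the 20 libraries, and its co-receptor *Ret* had 60 to 188. Among the parts of the adrenomedullin receptors, *Calcrl* had 0 to 9 counts and *Ramp1* 0 to 5, while the accessory proteins *Ramp2* and *Ramp3* had 46 to 125 and 455 to 1101. *Pappa* and *Pappa2*, the proteases that stanniocalcin 2 binds, had at most 4 and 1 counts. *Igfbp4*, a binding protein of insulin-like growth factors in the same list, had 214 to 566. The transcripts of the ligands were therefore present in cells where those of *Gfral*, *Calcrl*, *Pappa* and *Pappa2* were at or near the limit of counting.

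Nor were the close relatives of the members abundant. *Stc1*, the paralog of *Stc2*, had 0 to 21 counts, and *Adm*, the paralog of *Adm2*, had 3 to 61. Neither passed the test for ATRi in a multiplex where it could be tested. Of the genes that process or partner the members, 6 of 10 in the adrenomedullin list and 6 of 7 in the GDF15 list were tested in each multiplex, and none was called for ATRi in either direction. In the stanniocalcin list, 6 of 9 and 7 of 9 were tested, with none called. The edgeR fits called 1.11% and 0.0855% of all tested genes in either direction, so lists of this size would seldom hold a call at that rate. With the clone as a block the *Cdk8* multiplex gave 2 lower genes in the adrenomedullin list and 2 higher and 1 lower in the GDF15 list, where 11.3% of all tested genes were called.

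Other known ISR targets were called lower under ATRi, and how many depended on the fit. The list of these targets was chosen with earlier results of these data known, so its counts are a description. Of 38 tested ISR targets outside the 3 members, 8 fell under ATRi and none rose in the *Ccnc* multiplex (edgeR, adjusted p under 0.05), where 0.743% of all tested genes fell. Beside the *Cdk8* KO clones 3 fell and none rose, where 0.0481% of all genes fell, and with the clone as a block 21 fell where 6.39% of all genes did. The list has median log2 changes of -0.13 and -0.19, in the same order, against -0.01 and -0.01 over all tested genes, and 33 and 32 of its 38 genes were below 0, against 52.2% and 51.7% of all genes.

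Called in both multiplexes were *Chac1*, which encodes a glutathione-degrading enzyme, *Slc6a9*, a glycine transporter, and *Trib3*, a pseudokinase that feeds back on ATF4. *Chac1* was at 9.86 to 16.9 CPM with DMSO and 2.55 to 4.06 with ATRi in the *Cdk8* multiplex, and its log2 fold change was -1.88 there and -1.99 beside the *Ccnc* KO clones. In the *Ccnc* multiplex *Slc6a9* was at 3.59 to 5.13 CPM and 1.46 to 2.11, with changes of -1.38 there and -1.62 in the other. *Trib3* was at 46.3 to 63.3 CPM and 22.6 to 29.6, with changes of -0.99 and -1.04. For all 3 the treatments did not overlap in either multiplex, WT replicate 2 included. Without WT replicate 1 none of the 38 targets was called in the *Cdk8* multiplex, although the log2 changes of these 3 genes were then -1.83, -1.63 and -0.99. Without clone C8 *Chac1* alone was called there.

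The calls of the *Ccnc* multiplex also held *Vldlr* (-1.85), *Nupr1* (-1.53), *Atf4* itself (-0.47), *Slc7a1* (-0.35) and *Mthfd2* (-0.31). Their log2 changes in the other multiplex were -1.45, -1.50, -0.42, -0.39 and -0.33, and none was called by edgeR. *Atf4* had adjusted p-values of 0.0298 and 0.0718 in these fits, and its call in the *Ccnc* multiplex was lost without WT replicate 1 (adjusted p = 0.201), without clone G2 (0.150) or with WT replicate 2 under ATRi included (0.110). Without WT replicate 1, 4 of the 38 targets were called there, namely *Chac1*, *Slc6a9*, *Trib3* and *Nupr1*. The call of *Mthfd2* was also lost without clone G2 or H5 or with WT replicate 2 under ATRi included, and that of *Slc7a1* without clone H5. With the clone as a block all 5 genes were called in the *Cdk8* multiplex as well, *Atf4* with an adjusted p of 2.91e-05 in edgeR.

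Abundant transcripts were among the ISR targets that the edgeR fit without a block did not call in either multiplex. *Asns*, asparagine synthetase, was at 283 to 306 CPM with DMSO and 269 to 306 with ATRi in the *Ccnc* multiplex, with log2 changes of -0.04 and 0.02. *Psat1*, of serine synthesis, changed by -0.17 and -0.18, and the alanyl-tRNA synthetase gene *Aars* by -0.10 and -0.11. The stress factor *Ddit3*, known as CHOP, was far less abundant, at 3.96 to 5.58 CPM with DMSO in the *Ccnc* multiplex. It gave -0.49 and -0.31 and was not called (edgeR, adjusted p = 0.0568 and 0.430). Its ATRi libraries in the *Ccnc* multiplex, at 2.39 to 3.44 CPM, were all below the DMSO libraries, whereas in the *Cdk8* multiplex the treatments overlapped. Those 4 genes were named after their values were seen, and whether the fit with the clone as a block called them is not given here. *Atf4*, which was called in the *Ccnc* multiplex, was abundant too, at 222 to 340 CPM there with DMSO. The 4 eIF2α kinases and the other 4 genes upstream in the pathway gave no call in either multiplex, and their log2 changes lay between -0.12 and 0.11.

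The ISR targets were also compared between knockout and WT cells. In *Ccnc* KO none of the 38 was called, and in *Cdk8* KO 1 was, the transcription factor gene *Atf3*, which rose by 1.55 on the log2 scale (edgeR, adjusted p = 0.0216) and was not called with the clone as a block. In *Ccnc* KO *Atf3* differed by 0.95 (edgeR, adjusted p = 0.00105), short of the fold that a call required. Among all tested genes 1.94% and 1.05% were called, so 0 and 1 of 38 are near the background. The medians of the list were -0.13 and -0.17, with 29 and 28 of 38 genes below 0, against 0.00 and 0.01 and 49.3% and 48.3% over all genes, next to *Adm2* and *Gdf15* below 0 and *Stc2* above 0 in both knockouts.

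**Figure D4:**
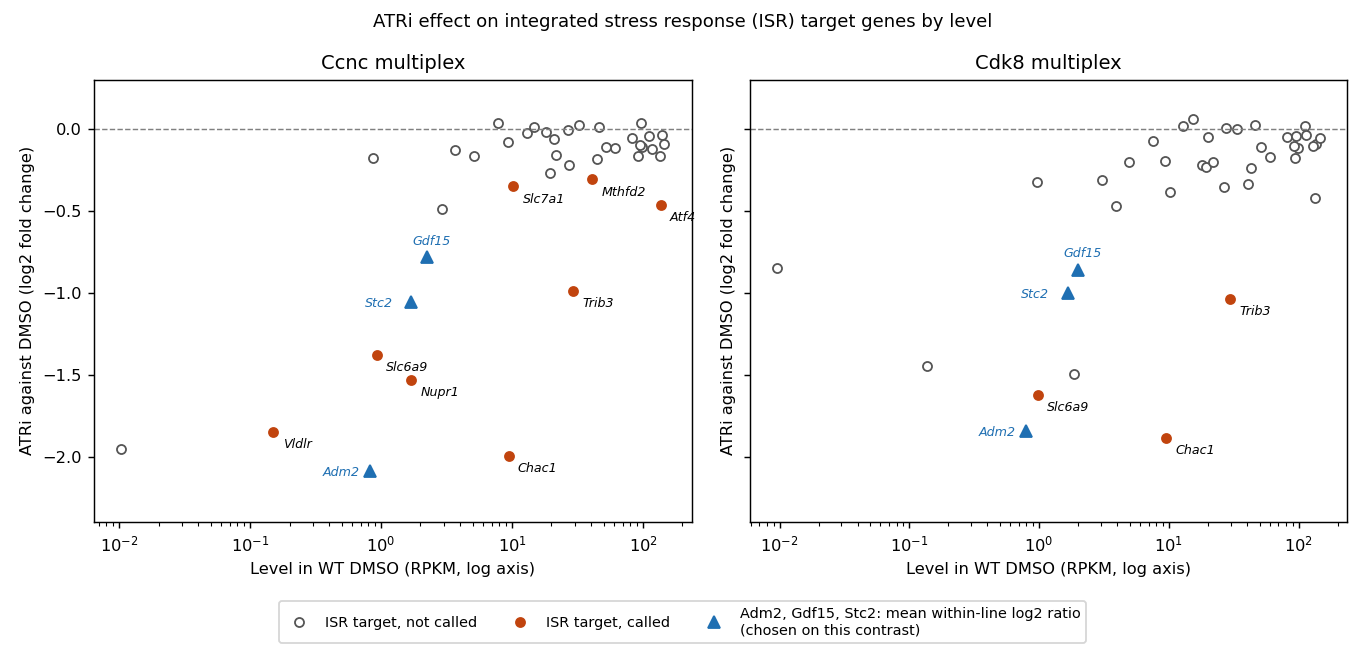
ATRi effect (log2 fold change) against the WT DMSO level (RPKM, log axis) for the 38 ISR targets in each multiplex, filled where called, with the members as triangles at their mean within-line log2 ratio without WT replicate 2. *Chac1*, *Slc6a9* and *Trib3* are filled in both panels, and many targets above 10 RPKM lie between -0.3 and 0.1.

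Of other secreted factors tied to stress, 13 of 19 could be tested beside the *Ccnc* KO clones, of which 2 fell and none rose, where 0.743% of all tested genes fell and 0.366% rose. In the multiplex of the *Cdk8* KO clones 15 could be tested and none was called in the edgeR fit, where 0.0855% of all genes were. *Vegfa*, the vascular growth factor, fell from 20.2 to 27.6 CPM with DMSO to 12.0 to 19.4 with ATRi (log2 change of -0.65, adjusted p = 0.0237), a call that was lost without WT replicate 1, without clone G2 or with WT replicate 2 under ATRi included. Its change beside the *Cdk8* KO clones was -0.61 (adjusted p = 0.255). *Inhbe*, which encodes an activin subunit, was also called lower in the *Ccnc* multiplex. Its libraries held 3 to 18 counts with DMSO and 0 to 4 with ATRi, where a fitted fold change depends on the prior count. The CPM of the treatments overlapped, but the highest ATRi value was that of WT replicate 2, which the fit left out. The call of *Inhbe* was lost without WT replicate 1, clone G2 or clone H5, or with WT replicate 2 under ATRi included. With the clone as a block 3 of the 15 factors were called lower in the *Cdk8* multiplex, *Vegfa* and *Inhbe* among them, and 1 higher. *Fgf21*, another stress hormone, had at most 5 counts in any library. In the list of endoplasmic reticulum chaperone genes, *Herpud1* was the only call of 17 tested in either multiplex, with log2 changes of -0.73 and -0.56, against 0.743% and 0.0481% of all genes called lower. Its call in the *Cdk8* multiplex was lost when any one of WT replicate 1, WT replicate 2, clone B9 or clone C8 was left out. Of 17 p53 targets, *Eda2r* alone was called, as higher in the *Ccnc* multiplex (0.43), where 0.366% of all genes were, and this call too was lost without WT replicate 1, without clone G2 or with WT replicate 2 under ATRi included. With the clone as a block 7 chaperone genes were called higher and 1 lower in the *Cdk8* multiplex, and 7 p53 targets higher. In that fit 11.3% of all tested genes were called in either direction.

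Across the 9 libraries of each multiplex that entered the fits, the genes whose log2 CPM followed the members most closely were found among 18130 genes by the mean of Pearson's r over the multiplexes. These values are descriptions, since the libraries share lines and treatments and the WT samples recur. The members were chosen for their decrease under ATRi, and the libraries include both treatments. A high r between members, or with other genes lower under ATRi, thus restates that choice in part. *Adm2* was followed by *Chac1* (mean r = 0.982), *Slc6a9* (0.970), *Sema4g* (0.956), *Kdm4a* (0.955) and *Herpud1* (0.948). *Gdf15* was followed by *Kdm4a* (0.958), *Slc6a9* (0.951), *Chac1* (0.942), *Samd10* (0.936) and *Herpud1* (0.926). *Stc2* was followed by *Sema4g* (0.951), *Adm2* itself (0.948), *Arl15* (0.947), *Pank1* (0.942) and *Osbpl7* (0.942).

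The lists for *Adm2* and *Gdf15* share *Chac1*, *Slc6a9*, *Kdm4a* and *Herpud1*, and that for *Stc2* shares *Sema4g* with *Adm2*. The semaphorin gene *Sema4g* changed by -0.67 and -0.61 under ATRi on the log2 scale, and *Kdm4a*, a histone demethylase gene of 99.0 to 128 CPM in the *Ccnc* multiplex, by only -0.24 and -0.26. With WT replicate 2 under ATRi included, r between *Gdf15* and *Kdm4a* fell to 0.731 and 0.855 in the multiplexes, and r between *Adm2* and *Chac1* was 0.987 and 0.975. Between members, r was 0.893 and 0.945 for *Adm2* and *Gdf15*, 0.969 and 0.927 for *Adm2* and *Stc2*, and 0.878 and 0.846 for *Gdf15* and *Stc2*.

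The nearest tested genes on either side of the members were not called for ATRi in the edgeR fit without a block. That fit called 1.11% and 0.0855% of all tested genes, so a few genes would seldom hold a call. Values of these neighbours with the clone as a block are not given here. *Sbf1* and *Lmf2*, beside *Adm2*, changed by 0.04 and -0.04 in the *Ccnc* multiplex. *Asb3* and *Bod1*, beside *Stc2*, changed by -0.07 and 0.06. *Ssbp4* changed by 0.03, and *Pgpep1*, 13978 bases from *Gdf15*, by -0.20 there and by -0.33 in the *Cdk8* multiplex (edgeR adjusted p = 0.257 and 0.136).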

How the data were processed

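Poly(A) RNA of 20 libraries was sequenced as single-end, directional reads. The authors trimmed the reads with Trimmomatic 0.38, aligned them to GRCm38.p6 with HISAT2 2.1.0, counted them per gene and strand with featureCounts 2.0.1, and deposited raw counts per lane. The counting ignored marked duplicates, and a step that marks them is not given in the sources used here. The authors also deposited rlog values, a log2 scale from DESeq2 that shrinks genes with few counts. The rlog values were used in 1 alternative only.

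The 2 lanes of each library were summed. Each multiplex was tested by itself on the counts, in edgeR 4.0.16 under R 4.3.3 (quasi-likelihood, TMM, filterByExpr by genotype and treatment), without WT replicate 2 under ATRi, and p-values were adjusted by Benjamini-Hochberg over all genes. CPM used the TMM factors, and log2 CPM a prior count of 2. Counting intervals are 95% exact Poisson or binomial intervals. The DMSO and ATRi libraries of a line come from the same line per the labels, and their deviations from the group means correlated at r of 0.04 to 0.65, so a fit with the line as a block was run beside each test (limma 3.58.1 with duplicateCorrelation for genotype, edgeR for the others). Further alternatives were RLE size factors, DESeq2 1.42.0, a minimal filter, the excluded library, DMSO libraries alone, other prior counts and leaving out each line.

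The members and gene lists were chosen with earlier results of these data known. Apart from members and targeted genes, genes are named where a list gene was called in both multiplexes (up to 4 a list), where they belong to the receptor and partner lists, or where they rank among the 5 most correlated with a member. The other genes named were chosen after their values were seen. The knockout clones are separate lines, and nothing says that the WT replicates are more than separate cultures. On simulated data with 200 changed genes among 18577, the test for the interaction recovered 56% of 2-fold and 88% of 4-fold changes in the *Ccnc* multiplex. It recovered 37% and 75% among 18721 genes in the *Cdk8* multiplex. The changed genes were drawn above a minimum mean count, and the libraries of a clone were simulated as independent. These shares need not hold for genes with few counts or for correlated libraries.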

Additional observations from a re-analysis of the deposited data

How the results depend on the processing

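No member was called for genotype or interaction under any alternative run (120 values, lowest adjusted p 0.134), the replicate block included, and the sign of small effects turned in 15 of them. With WT replicate 2 under ATRi included, the interaction of *Gdf15* was -0.18 in *Ccnc* KO and -0.30 in *Cdk8* KO. With the replicate block the *Cdk8* KO interaction was -0.036 for *Gdf15* and 0.0058 for *Stc2*, and for *Stc2* it was 0.0048 with RLE size factors and 0.0063 with DESeq2. Leaving out 1 line gave genotype effects of -0.37 to 0.018 (*Adm2*), -0.33 to 0.066 (*Gdf15*) and 0.0083 to 0.25 (*Stc2*) in *Ccnc* KO, and -0.27 to 0.063, -0.31 to -0.20 and 0.18 to 0.29 in *Cdk8* KO. The interactions ran over -0.32 to -0.15, 0.067 to 0.46 and 0.0099 to 0.11 in *Ccnc* KO, and -0.23 to 0.69, -0.073 to 0.081 and -0.10 to 0.11 in *Cdk8* KO. The interaction without WT replicate 1 could not be fitted, since no WT library under ATRi is then left.

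The decrease under ATRi kept its sign for each member in all alternatives. The mean log2 ratio without WT replicate 2 was -2.09 and -1.84 for *Adm2*, -0.78 and -0.86 for *Gdf15* in the *Ccnc* and *Cdk8* multiplexes, and -1.06 for *Stc2* in the former. A prior count of 0.5 gave -2.27 for *Adm2* in the *Ccnc* multiplex. The deposited rlog values, which shrink low counts, gave -0.18 and -0.18, -0.24 and -0.26, and -0.49 and -0.50. Leaving out 1 line gave -2.11 to -2.05 and -2.05 to -1.56, -0.89 to -0.66 and -0.91 to -0.82, and -1.08 to -1.03 and -1.07 to -0.92.

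Of the listed genes tested, 12 of 167 were called for ATRi beside the *Ccnc* KO clones and 4 of 171 beside the *Cdk8* KO clones. That fit called 1.11% and 0.0855% of all tested genes. With the replicate block the counts were 19 and 55, where 451 of 18577 and 2107 of 18721 (11.3%) of all tested genes were called. The counts were 26 and 7 with the minimal filter. They were 7 in the *Ccnc* multiplex with WT replicate 2 under ATRi included and 13 in the *Cdk8* multiplex with DESeq2. Leaving out 1 line gave 5 to 14 and 0 to 6, lowest without WT replicate 1 in each. In the *Cdk8* multiplex 1 was called without clone C8, and in the *Ccnc* multiplex 7 without clone G2. Apart from the replicate block, the share of all genes called in each alternative is not given here. The cause of these shifts was not tested.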
